A study of Mus musculus with 5 samples.

Results

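The 9 neurogenic basic helix-loop-helix (bHLH) genes Neurog1, Neurog2, Neurog3, Neurod1, Neurod2, Neurod4, Neurod6, Atoh1 and Olig2 were examined for the repressive histone mark H3K27me3 in cultured mouse dermal fibroblasts. They were taken by symbol, and all 9 were found among the 55450 annotated genes (21951 protein-coding) of the GRCm38 annotation. H3K27me3 ChIP-seq peak lists were available for 4 libraries of fibroblasts from wild-type skin on a C57BL/6 background, 2 labelled E14 and 2 labelled E17, with no treatment in either group. The study's text gives these stages as E14.5 and E18.5, and it used the assay to study how the mark bears on chromatin while dermal progenitors differentiate in the embryo. The cells were expanded in culture before the assay, so they stand for cultured dermal cells and not for the dermis itself. In addition, 1 input library was not analysed here. No source says that replicates came from separate embryos, so the spread between replicates may be technical.

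Neurogenic bHLH proteins switch cells towards a neural or endocrine fate. They pair with the widely expressed E proteins, bind the short DNA sequence CANNTG (the E-box), and are held back by Id proteins and by the Hes and Hey repressors of the Notch pathway. Fibroblasts do not use this program, and in non-neural cells such master regulators are typical targets of Polycomb repressive complex 2, the enzyme that deposits H3K27me3, above all where their promoters are rich in CpG.

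A gene was scored as marked in a library when at least 1 bp of a peak fell within 3000 bp of an annotated start site, on either side. Of the 9 genes, 7 were marked in all 4 libraries (Neurog1, Neurog2, Neurog3, Neurod1, Neurod2, Atoh1 and Olig2), Neurod6 was marked in both E14 libraries and in neither E17 library, and Neurod4 was marked in none. Among protein-coding genes, 19.5% were marked in both E14 libraries, 12.2% in both E17 libraries, 12.0% in all 4 and 74.1% in none. Of the protein-coding genes marked in both E14 libraries, 61.9% were marked in all 4, against 7 of 8 here. The share marked in neither E17 library was 23.8%, against 1 of 8 here. In each of the 7 genes the peak lay over the start site itself, and it was narrower in both E17 libraries than in both E14 libraries.

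The promoters of these genes differed in the number of CpG sites, and 5 are shown, 3 of genes marked throughout and those of the 2 genes that were not. All 9 genes matched the RefSeq promoter table (GRCm38.p6), and each sequence is the 250 bases upstream of the RefSeq start, read in the direction of transcription, with every CpG in capitals. Neurog1 (chr13:56252181-56252430, minus strand) has 29 CpG sites, Neurog3 (chr10:62132840-62133089, plus strand) 18 and Atoh1 (chr6:64728875-64729124, plus strand) 14, and all 3 were marked in every library. Neurod6 (chr6:55681264-55681513, minus strand) has 3 and Neurod4 (chr10:130280255-130280504, minus strand) has 2.
Neurog1: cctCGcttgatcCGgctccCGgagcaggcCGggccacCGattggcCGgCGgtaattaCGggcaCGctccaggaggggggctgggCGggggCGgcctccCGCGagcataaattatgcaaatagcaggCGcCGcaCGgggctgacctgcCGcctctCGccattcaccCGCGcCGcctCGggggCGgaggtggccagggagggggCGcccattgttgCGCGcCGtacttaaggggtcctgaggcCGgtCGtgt
Neurog3: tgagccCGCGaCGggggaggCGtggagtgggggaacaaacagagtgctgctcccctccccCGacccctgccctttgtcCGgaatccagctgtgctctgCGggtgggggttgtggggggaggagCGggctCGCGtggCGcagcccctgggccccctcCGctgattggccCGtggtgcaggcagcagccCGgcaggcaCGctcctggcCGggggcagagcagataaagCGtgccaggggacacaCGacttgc
Atoh1: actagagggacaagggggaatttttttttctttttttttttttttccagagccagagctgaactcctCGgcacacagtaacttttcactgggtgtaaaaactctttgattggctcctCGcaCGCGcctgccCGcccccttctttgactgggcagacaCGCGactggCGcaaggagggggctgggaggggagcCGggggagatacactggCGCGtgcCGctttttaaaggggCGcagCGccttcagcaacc
Neurod6: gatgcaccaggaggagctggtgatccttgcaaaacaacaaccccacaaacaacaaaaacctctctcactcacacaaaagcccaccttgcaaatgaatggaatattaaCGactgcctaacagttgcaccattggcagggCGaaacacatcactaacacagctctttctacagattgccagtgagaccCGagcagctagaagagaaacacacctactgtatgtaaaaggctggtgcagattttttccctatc
Neurod4: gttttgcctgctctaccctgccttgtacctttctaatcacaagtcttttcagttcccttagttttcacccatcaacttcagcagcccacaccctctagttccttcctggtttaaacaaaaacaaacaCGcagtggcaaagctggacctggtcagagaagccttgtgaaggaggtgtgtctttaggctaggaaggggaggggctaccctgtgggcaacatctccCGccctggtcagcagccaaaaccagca
Of the genes marked throughout whose promoters are not shown, Neurod1 and Olig2 have 22 CpG sites each, Neurod2 11 and Neurog2 8, so the pair of genes with the widest mean E14 peaks lies nearer to Neurod6 than the printed ones do. The median of the 32851 promoters in the table is 6 CpG sites, and 7 of the 9 genes lie above it. The genes below it are Neurod6 and Neurod4. The E-box CANNTG, whose letters read the same on both strands, occurs in the upstream 250 bases of 4 of the 9 genes (Neurog3, Neurod1, Neurod2 and Neurod6) and of 66.2% of all promoters.

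The lists differed in length. They held 21546 and 16574 peaks at E14 and 10429 and 7107 at E17, and protein-coding genes marked in each library ran from 24.3% to 12.8%. Read counts are not part of the lists. The methods name a common read depth, but how deep each library was cannot be checked here, and a missing peak means only a signal below the threshold used for that list. Since peaks were called in bulk cultures, fewer cells with the mark and less mark per cell cannot be told apart. H3K27me3 typically marks silent genes. Of 9 dermal fibroblast genes (among them Col1a1, Pdgfra and Twist2) 0 were marked in any library, where 74.1% of protein-coding genes were marked in none. Krt5, Krt14 and Trp63 of keratinocytes and Pecam1 and Cdh5 of endothelial cells were also marked in none. Lack of a peak thus does not set the fibroblast genes apart. Marked in all 4 libraries were Epcam of the 4 keratinocyte genes, Kdr of the 3 endothelial genes, and Elavl3 and Snap25 of the 4 neuronal genes, while Ptprc of blood cells was marked in none. Of the other neuronal genes, Tubb3 was marked in both E14 libraries only and Elavl4 in E14 replicate 1 only.

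**Figure D1:**
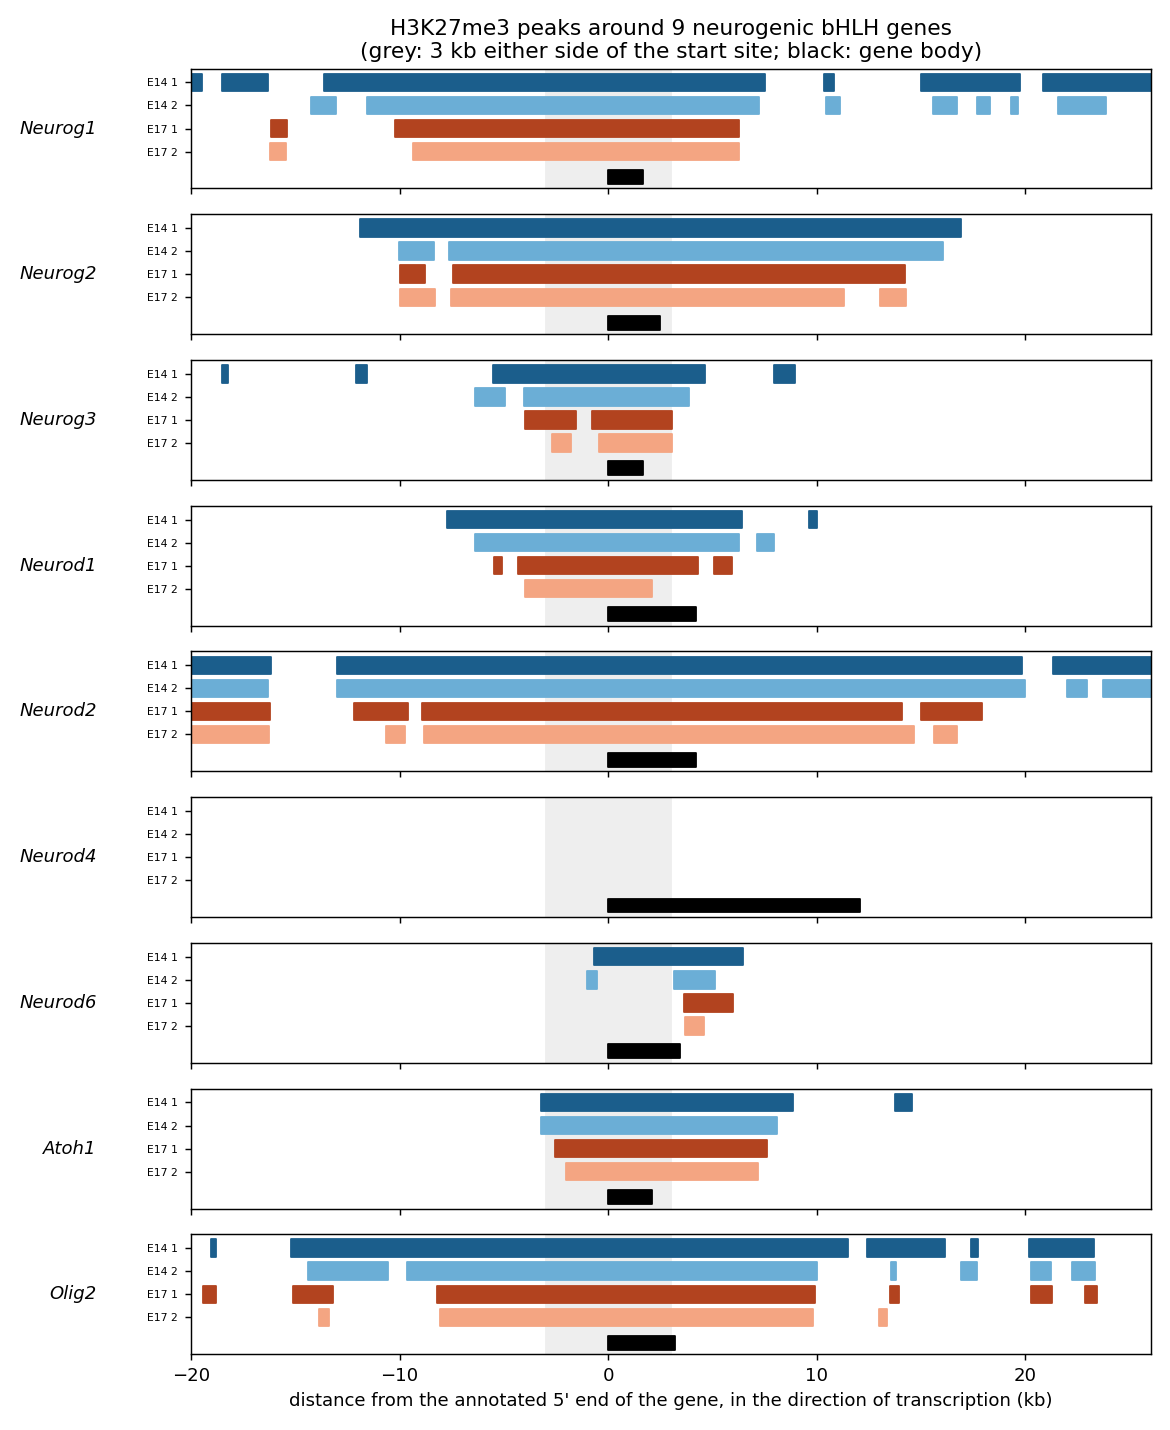
Peaks of the 4 libraries (bars, 1 row per library) around each of the 9 genes, on a common axis of distance from the annotated 5' end in kb, with upstream to the left. In 7 genes the bars of all 4 libraries cover the start site and are shorter in the E17 rows, in Neurod6 the E17 bars lie past the gene end, and Neurod4 has no bar.

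The neurogenins act first, in dividing progenitors. Neurog2 (chromosome 3 from 127633135 to 127635631, plus strand), which specifies cortical and spinal neurons, lay in a peak of 28819 and 23681 bp at E14 and of 21694 and 18842 bp at E17. Both E17 widths were below both E14 widths, with a mean of 26250 ± 3633 bp (SD, n = 2) at E14 and 20268 ± 2017 bp (SD, n = 2) at E17. The two-sided exact permutation test gave p = 0.333, which is the smallest p that 2 libraries against 2 allow, so no stage difference here can pass the usual threshold. In the other 3 libraries a separate upstream piece (1711 bp in E14 replicate 2, 1199 bp in E17 replicate 1 and 1669 bp in E17 replicate 2) lay within the extent of the single peak of E14 replicate 1. E17 replicate 2 also had a downstream piece of 1251 bp within that extent.

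Neurog1 (chromosome 13 from 56250478 to 56252163, minus strand), needed for cranial sensory neurons, lay in a peak of 21121 and 18808 bp at E14 and of 16485 and 15606 bp at E17. The 4 widths were in the same order of stages as at Neurog2, with means of 19964 ± 1636 bp and 16046 ± 622 bp (SD, n = 2 each; exact permutation test, p = 0.333). The upstream side of the peak reached 13609 and 11558 bp from the start site at E14 and 10214 and 9338 bp at E17. The downstream side reached 7511 and 7249 bp at E14 and 6270 and 6267 bp at E17. The non-coding RNA gene 4930550C17Rik had the same peak within reach of its start site in all 4 libraries.

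Neurog3 (chromosome 10 from 62133090 to 62134763, plus strand), the switch for endocrine cells of the pancreas, had the narrowest peaks of the 7 genes marked throughout. A single peak of 10175 and 7871 bp covered its windows in full at E14. At E17 the peak was in 2 pieces in both libraries, a piece of 3819 and 3461 bp over the start site and the gene, and an upstream piece of 2458 and 882 bp. The bases missing from both E17 lists between these pieces ran from −1534 to −768 bp relative to the start site (chr10:62131556-62132322), with 22.2 CpG sites per kb. The covered part of the windows was 6086 bp in both E14 libraries and 5285 and 4343 bp in the E17 libraries. The mean difference of −1272 bp became −197 bp when peaks with a gap of at most 3000 bp were joined, and with a −log10 q-value of at least 5 Neurog3 was no longer marked in both E17 libraries. Neurog3 overlaps the annotated gene Fam241b, which shared its peaks in all 4 libraries.

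The NeuroD genes act later, in cells that have left the cycle. Neurod2 (chromosome 11 from 98325415 to 98329648, minus strand), a gene of maturing forebrain neurons, lay in the widest peak of the 9, with 32834 and 32981 bp at E14 and 22998 and 23507 bp at E17. The replicates differed by far less than the stages, with means of 32908 ± 104 bp and 23252 ± 360 bp (SD, n = 2 each; exact permutation test, p = 0.333). Both edges of this peak lay further inward at E17. The peak reached 19852 and 19994 bp downstream of the start site at E14 and 14072 and 14661 bp at E17, and upstream 12981 and 12986 bp at E14 and 8925 and 8845 bp at E17. Beyond these edges, E17 replicate 1 had separate pieces of 2581 bp upstream and 2917 bp downstream, within the extent of the E14 peaks. In E17 replicate 2 such pieces measured 896 and 1099 bp, so part of the narrowing is a split of the peak.

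Neurod1 (chromosome 2 from 79452521 to 79456751, minus strand), used in neurons, the retina and pancreatic islets, lay in a peak of 14143 and 12685 bp at E14 and of 8651 and 6069 bp at E17. The E17 mean was 54.9% of the E14 mean. In E17 replicate 1, separate pieces of 871 and 359 bp also lay within the extent of the E14 peaks. The gene body was covered in full in both E14 libraries and in E17 replicate 1, and to 49.4% in E17 replicate 2, where the peak ended 2088 bp past the start site. Neurod1 overlaps the annotated gene Cerkl and the long non-coding RNA Gm26755, whose start-site windows the same peak entered in all 4 libraries, so the peak cannot be assigned to Neurod1 alone.

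Neurod6 (chromosome 6 from 55677822 to 55681263, minus strand), a marker of cortical projection neurons, was the gene of the 9 that changed in presence. In E14 replicate 1 a peak of 7171 bp ran from 681 bp upstream of the start site to 6489 bp downstream and covered the whole gene. E14 replicate 2 had 472 bp upstream of the start site, at the 4.56 percentile of its list by fold enrichment, and a separate peak of 1934 bp that began 3173 bp downstream. The E17 libraries had peaks of 2342 and 927 bp that began 3625 and 3672 bp downstream, past the end of the gene. The non-coding RNA gene Gm3279 shared the peak of Neurod6 in the 2 E14 libraries. The E14 replicates thus differed more from each other in the window (3682 and 472 bp covered) than replicate 2 differed from the E17 libraries, which had 0.

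What all 4 lists shared at Neurod6 was a stretch of 927 bp beyond its 3' end (chr6:55676665-55677591), 230 bp from the end of the gene. It holds 36.7 CpG sites per kb, against 5.18 per kb in the bases around Neurod6 that were in a peak of both E14 lists and no E17 list. The observed to expected ratio of CpG over this whole stretch was 0.423. Its 300 bases with the most CpG sites were picked for that number, so their count is not comparable with that of the fixed 250 bases of the Neurod6 promoter above. They hold 21 and are shown here (chr6:55676914-55677213, minus strand, CpG in capitals).
Neurod6 3' flank: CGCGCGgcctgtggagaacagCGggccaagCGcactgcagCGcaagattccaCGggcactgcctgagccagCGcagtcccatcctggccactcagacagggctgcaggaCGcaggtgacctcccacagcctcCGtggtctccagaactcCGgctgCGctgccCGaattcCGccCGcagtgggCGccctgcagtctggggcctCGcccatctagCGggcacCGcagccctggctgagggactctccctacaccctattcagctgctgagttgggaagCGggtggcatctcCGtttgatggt
With a window of 5000 bp instead of 3000 bp, Neurod6 was marked in all 4 libraries and no gene of the 9 was marked at E14 only. Of the 1015 protein-coding genes marked in both E14 libraries and neither E17 library, 4.63% became marked in both E17 libraries with that window. Neurod6 also left the genes marked at E14 when at least 500 bp of the window had to be covered, since E14 replicate 2 then failed.

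Neurod4 (chromosome 10 from 130268152 to 130280240, minus strand), a partner of the other factors in retinal and early neurons, had no peak in its window, in its body or within 20000 bp of the gene in any library. The nearest peak to its start site was 82869 and 314040 bp away at E14 and 1345163 and 1383137 bp away at E17. Its surroundings had 3.67 CpG sites per kb, below the 8.07 per kb of bases outside all peaks in the genome.

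Atoh1 (chromosome 6 from 64729125 to 64731245, plus strand) specifies inner ear hair cells, cerebellar granule neurons and the touch-sensitive Merkel cells of the epidermis. It lay in a peak of 12092 and 11343 bp at E14 and of 10157 and 9178 bp at E17. The covered part of its window was 6001 bp in both E14 libraries and 5555 and 5006 bp in the E17 libraries (p = 0.333 by the exact permutation test), and within 1000 bp of the start site it did not differ. The E17 mean width was 82.5% of the E14 mean, the highest ratio of the 7 genes.

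Olig2 (chromosome 16 from 91225457 to 91228677, plus strand), which acts in motor neuron and oligodendrocyte progenitors and works largely as a repressor, lay in a peak of 26706 and 19647 bp at E14 and of 18109 and 17857 bp at E17. The E17 widths were close to E14 replicate 2 and far from E14 replicate 1, and the E14 libraries differed by more (4991 bp SD) than the E17 libraries (178 bp SD). Upstream pieces of 3822 bp in E14 replicate 2, 1898 bp in E17 replicate 1 and 494 bp in E17 replicate 2 lay within the extent of the single peak of E14 replicate 1. The peak of Olig2 also reached the window of the annotated Gm49614 in all 4 libraries. The neighbouring Olig1 was marked in all 4 libraries too, by other peaks, of 10283 and 8714 bp at E14 and 6606 and 6421 bp at E17.

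**Figure D2:**
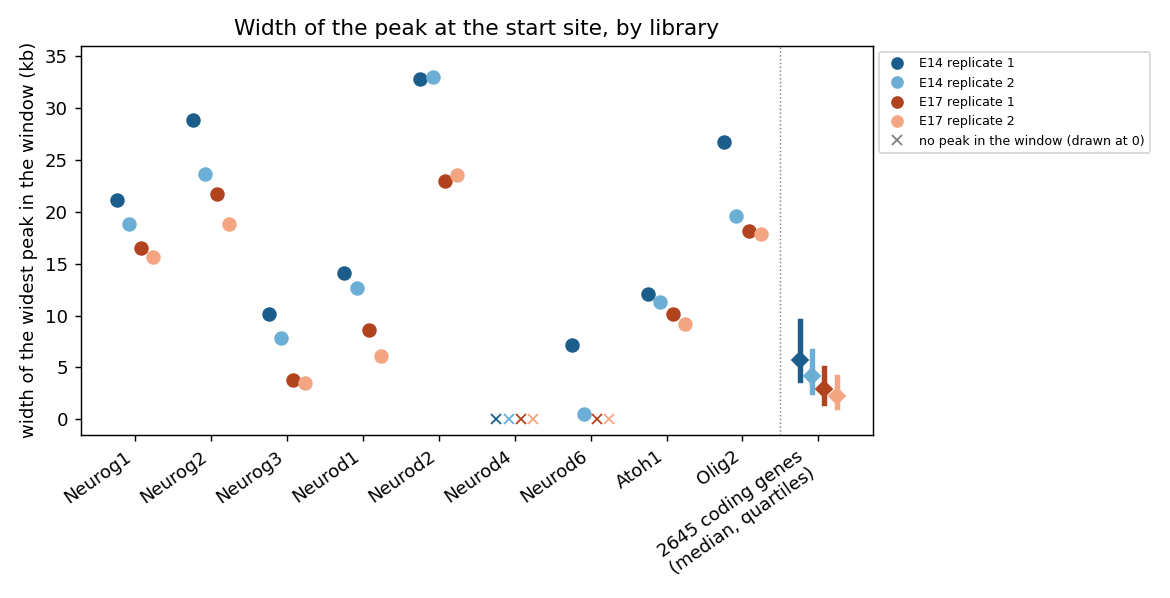
Width in kb of the widest peak that reaches within 3000 bp of a start site, for each gene and library (circles), with crosses at 0 where there is no peak and, at the right, the median (diamond) and quartiles (line) of the 2645 protein-coding genes marked in all 4 libraries. At 7 genes both E17 circles lie below both E14 circles, and 6 of these genes lie above the upper quartile of their library at every point.

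Width was added as a measure because the windows were too short to register change. The window was covered in full in all 4 libraries at 4 genes (Neurog1, Neurog2, Neurod2 and Olig2), as at 3.78% of the 2645 protein-coding genes marked in all 4 libraries. The covered length was lower in both E17 libraries at 3 of the 8 genes marked at E14 (Neurog3, Neurod6 and Atoh1), where the share over protein-coding genes marked in both E14 libraries was 84.2%. Over the 7 genes marked throughout it was lower at 2 (Neurog3 and Atoh1), where the share over the 2645 genes was 77.8%. The peak was narrower in both E17 libraries at 7 of 7 genes, where the share was 81.4%, so narrowing was common to most marked genes. The mean E14 peak was wide for a marked gene, since 97.8% of the 2645 genes had a narrower one than Neurod2, 96.7% than Neurog2, 95.6% than Olig2, 94.1% than Neurog1, 88.4% than Neurod1, 86.2% than Atoh1 and 79.5% than Neurog3. Each width is that of the widest piece alone, so the upstream E17 pieces at Neurog3 are left out. By this measure the E17 mean width ranged from 40.3% of the E14 mean (Neurog3) to 82.5% (Atoh1), with a median of 77.2% over the 7 genes. Over the 2645 genes the median was 54.2%, and over the 409 of them with a mean E14 width from 10000 to 35000 bp it was 61.6% with quartiles of 41.6% and 77.3%. Neurog1, Atoh1 and Olig2 were above that upper quartile and Neurod1 was below that median. Neurog3 was narrower at E14 than this range, and no test of the family against other genes was made.

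The strength of a peak was compared only as its rank by fold enrichment within its own list, because fold enrichment is set against each library's own background. It reached 8.16 at E14 (Atoh1) and 5.5 at E17 (Olig2), while the highest value in any list was 12.9 and 14.8 at E14 and 6.94 and 6.56 at E17. At 6 of the 7 genes the strongest peak in the window stood at the 92.8 percentile or higher in every library. Olig2 stood at the 98.9 and 98.7 percentile at E14 and the 98.7 and 97.9 percentile at E17. Neurog2 stood at the 99.5 and 99.2 percentile and then the 98.1 and 97.8 percentile. In E14 replicate 1 these 6 genes lay between 98.1 and 99.5, a smaller spread than that between the E17 replicates of Neurog1 (96.9 and 92.8), so their order carries little.

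Rank was lower at E17 in both libraries at 5 of the 7 genes (Neurog1, Neurog2, Neurod1, Neurod2 and Atoh1), where the share over the 2645 genes was 73.3%. Atoh1 went from 99.5 and 98.6 to 95.9 and 93.2, and Neurod2 from 99.0 and 98.0 to 97.5 and 94.5. Neurog3 is the gene apart, with 89.4 and 80.7 at E14 and 82.2 and 52.2 at E17, so that the stages overlap and E17 replicate 2 alone is far down its list. The median difference between stages was −2.49 percentile points over the 7 genes and −11.5 over the 2645 genes. The 2 sets began at unlike ranks, with E14 medians of 98.9 and 98.0 against 93.3 and 90.7. Genes of like E14 rank were not compared. With lists cut to 7107 top peaks each, the genes lower in both E17 libraries numbered 2 and not 5, and the median difference was −0.718 points. With a −log10 q-value of at least 3 or 5 it was larger in size, at −4.285 and −12.2 points. At 5 only 6 genes were still marked at E17. The median difference was negative in every setting. The median difference was −1.37 points without E17 replicate 2 and −4.01 points without E17 replicate 1.

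**Figure D3:**
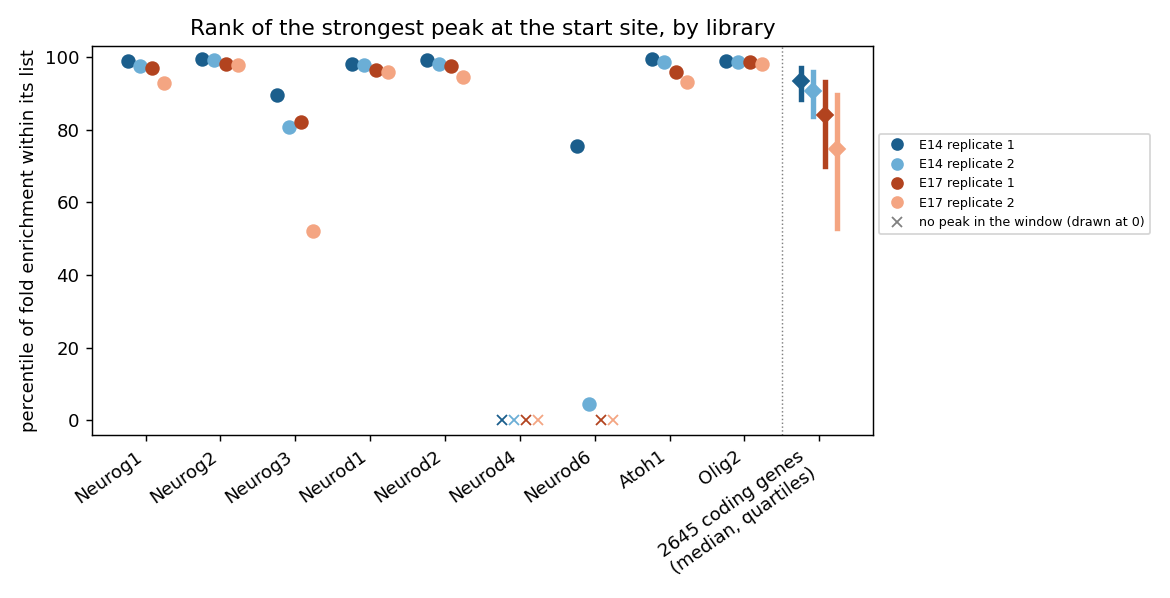
Percentile by fold enrichment, within its own list, of the strongest peak in the window of each gene in each library (circles), with crosses at 0 where there is no peak, beside the median and quartiles of 2645 protein-coding genes marked in all 4 libraries. The circles of 6 genes stay at 92.8 or higher, while Neurog3 reaches 52.2 in E17 replicate 2 and Neurod6 reaches 4.56 in E14 replicate 2.

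CpG content near the start site differed between the 7 genes marked in all 4 libraries and Neurod6 and Neurod4. Neurod6 falls outside the 7 by the window of 3000 bp, since with 5000 bp it was marked in all 4 libraries. Within 1000 bp either side of the 5' end, the 7 genes marked throughout had from 62 CpG sites (Neurod1) to 165 (Neurog2), Neurod6 had 23 and Neurod4 had 16. The ranges do not overlap, and the observed to expected ratio of CpG was 0.466 or more in the 7 genes, 0.274 at Neurod6 and 0.187 at Neurod4. Across protein-coding genes, 1.86% of those with 0 to 19 CpG sites and 8.21% of those with 20 to 39 were marked in all 4 libraries, against 14.3% to 19.9% in each class above. CpG number did not order the peaks by width, since Neurod2, with the widest peaks, had 82 sites and Neurog2 165. These are descriptions over 9 genes and whole classes, with no test.

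**Figure D4:**
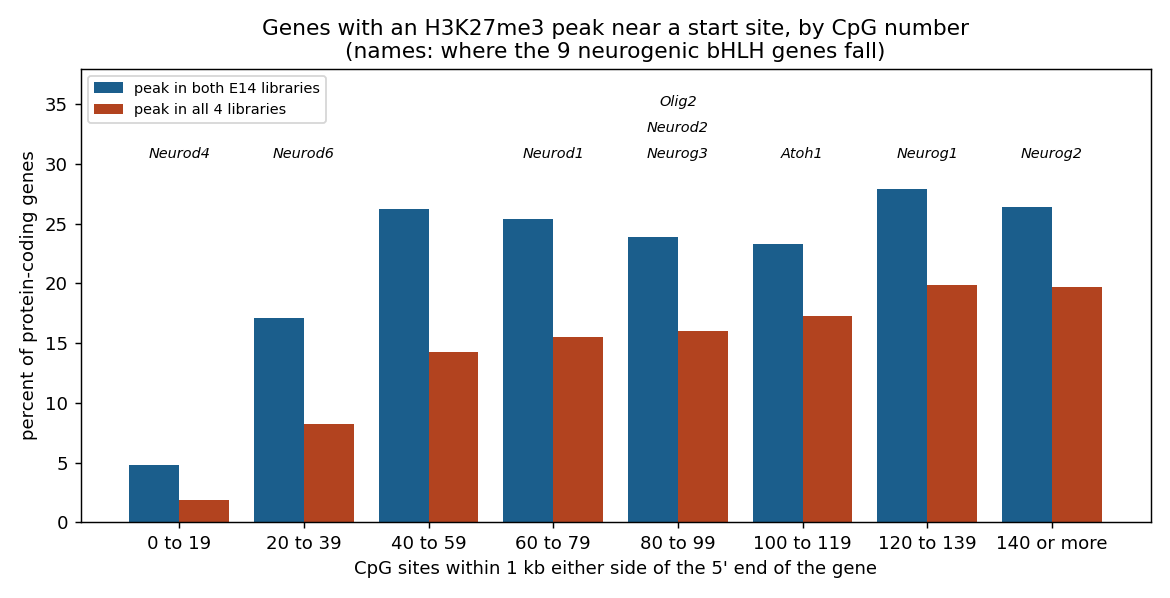
Percent of protein-coding genes marked in both E14 libraries and in all 4 libraries (bars, colours in the legend), by the number of CpG sites within 1 kb of the 5' end, with the 9 genes named above their class. Neurod4 and Neurod6 fall in the classes with 1.86% and 8.21% marked in all 4, and the other genes in classes with 15.5% or more.

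The parts of the peaks that were no longer called at E17 were poorer in CpG at most of the genes. Around Neurog1, bases in a peak of all 4 lists had 25.8 CpG sites per kb, and bases in a peak of both E14 lists and no E17 list had 10.6. The same pair of values was 26.2 and 10.8 at Neurog2, 30.0 and 5.35 at Neurod1, 29.6 and 6.76 at Atoh1 and 32.6 and 13.6 at Olig2. At Neurog3 the difference was smaller, with 27.6 and 21.9. Neurod2 was the exception, where the values were nearly equal (25.6 in the bases of all 4 lists). Over the whole genome the values were 29.3 per kb in bases of all 4 lists, 15.6 in bases of both E14 lists and no E17 list, and 8.07 outside all peaks, so the direction at these genes was that of the genome. Bases in a peak of both E17 lists and no E14 list were found around Neurog1 alone, with 709 bp.

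**Figure D5:**
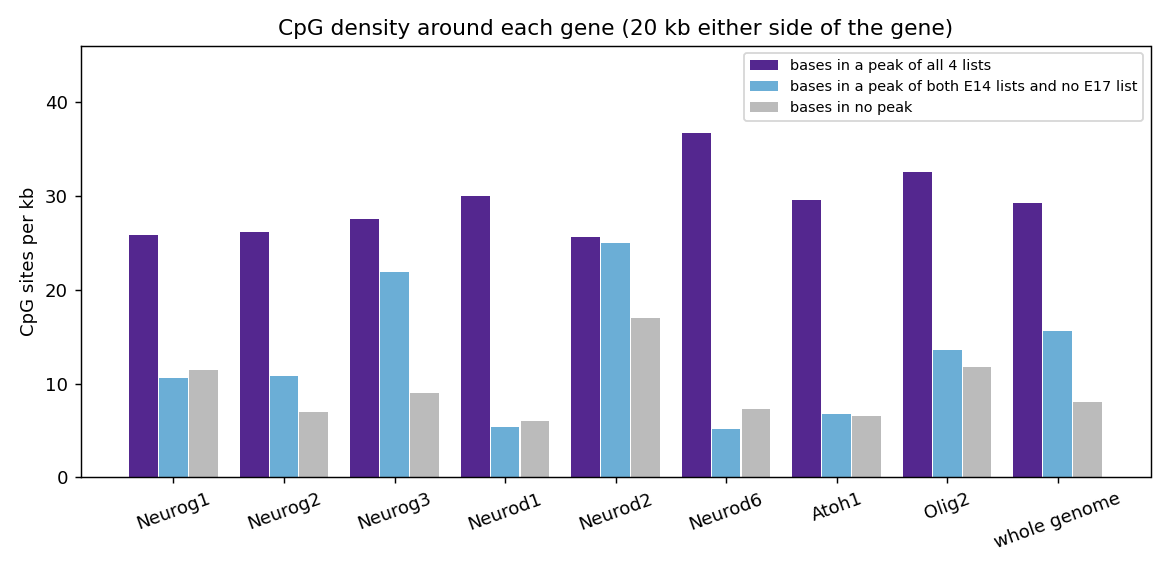
CpG sites per kb around 8 of the genes (20 kb either side) and in the whole genome, in bases within a peak of all 4 lists, in bases within a peak of both E14 lists and no E17 list, and in bases in no peak. The first bar is at least as high as the second for each gene, and nearly equal to it at Neurod2, where the first is 25.6.

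Other genes of the same pathway were taken from fixed lists. Of 11 further neural bHLH genes, 10 were marked in all 4 libraries, and Bhlha15, a gene of secretory cells, in none. All 10 had a narrower peak in both E17 libraries, where the share over the 2645 protein-coding genes marked in all 4 libraries was 81.4%. Their median E17 width was 64.3% of E14, and that of the 2645 genes was 54.2%. Nhlh2 (98.8) and Olig3 (98.2) had the highest mean percentile, followed by Nhlh1 and Ferd3l (96.3 each). The E proteins Tcf3, Tcf4 and Tcf12, with which the 9 factors pair, were marked in no library, and neither were the inhibitors Id1, Id2, Id3 and Id4. Among protein-coding genes, 12.0% were marked in all 4 libraries and 74.1% in none, so the lack of a mark at these partners and inhibitors is common. Among 5 repressors of neurogenesis, Hes5, Hey1 and Hey2 were marked in all 4 libraries and Hes1 and Rest in none.

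Of 18 genes known to act downstream of these factors, 15 were marked in all 4 libraries, where the share over protein-coding genes was 12.0%. The strongest by mean percentile were Ebf3 (99.9), Mnx1 (99.4) and Ebf2 (99.3). The unmarked ones were Hes6, Dcx and Rnd2. The peaks of the marked genes were narrower in both E17 libraries at 13 of 15, with Eomes and Mnx1 outside that count. The share over the 2645 protein-coding genes marked in all 4 libraries was 81.4%. Of 18 myogenic and mesodermal bHLH genes, from another branch of the same protein family, 10 were marked in all 4 libraries and 5 in none. The shares over protein-coding genes were 12.0% and 74.1%. The 5 unmarked genes are Myog, Scx, Twist1, Twist2 and Lyl1, of which Twist1 and Twist2 are genes of dermal mesenchyme. Myf5 was marked in both E14 libraries only, as Neurod6 was, with 463 bp at the 7.07 percentile in E14 replicate 2. Myf6 and Tcf23 were marked in E14 replicate 1 only. The median E17 width was 61.5% of E14 over the 10 genes marked in all 4 libraries, and 54.2% over the 2645 genes. The difference of those 10 from the neurogenic genes was not tested.

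The protein-coding genes on other chromosomes with the most similar pattern were sought over the 4 libraries, by the mean of 8 absolute differences (percent of the windows covered and percentile, 4 values each). The closest were Sox21 to Neurog2 (0.0628 points), Vax1 to Neurod2 (0.121), Fgf8 to Olig2 (0.126), Pdx1 to Neurog1 (0.259), Gm8909 to Neurod1 (0.472) and Dll4 to Atoh1 (1.18). Peak width was not part of the measure, so a close match can differ in it. Gm8909 had peaks of 37339 and 17948 bp at E14 and 16827 and 16175 bp at E17, wider than Neurod1 in every library. For Neurog1, Neurog2, Neurod2 and Olig2, whose windows are covered in full, from 105 to 114 genes lay within 2 points, so these matches are hardly distinct. Neurog3 and Neurod6 had no gene within 2 points, and their closest were Rims4 (4.82) and Hoxb2 (3.35). A missing percentile was counted as 0. Hoxb2 had a peak in E14 replicate 1 only, so it did not share the presence of Neurod6 in both E14 libraries.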

How the data were processed

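H3K27me3 ChIP-seq peak lists of 4 libraries (E14 and E17, n = 2 each) were analysed. Per the labels, the authors used Bowtie2 2.3.5.1, SAMtools 1.9 and MACS2 2.2.7.1 on mm10. The methods give broad peaks at a q-value cutoff of 0.01, and the lists are separate for each library. The control of the peak call is not given in the sources used here. For each peak the authors deposited the fold enrichment, a ratio of signal to local background, together with its −log10 p-value and −log10 q-value from the peak caller. Labels and methods differ in stage, medium, shearing and library kit, and the methods state a subsampling of reads for wild-type and mutant E18.5 samples without saying whether the E17 libraries used here are meant.

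Start sites came from GENCODE vM21 (GRCm38, the same build). Covered bases, widths and ranks were computed with Python 3.11.15, numpy 2.4.6 and scipy 1.17.1, and tested on simulated lists. Percentile is the share of peaks in a list with a fold enrichment at most that of the peak. Stages were compared gene by gene with the exact permutation test over libraries. The genes and lists were chosen with earlier results of these data known, and width was added as a measure after the covered lengths were seen. Named genes are the 9 genes, the list genes marked at 1 stage only or highest in mean percentile, and the closest gene by pattern. Others, such as unmarked list genes, were named after their values were seen. Alternatives were windows of 1000 and 5000 bp, stricter q-values, coding start sites, equal-number lists, other overlap and rank rules, joined peaks, each library left out, and pairing by replicate number. One list of marker genes is not reported here.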

Additional observations from a re-analysis of the deposited data

How the results depend on the processing

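The genes marked at E14 numbered 8 or 7 and those marked at E17 from 6 to 8 in the alternatives that counted them. In the alternatives that measured width, it was lower in both E17 libraries at 7 genes, or 6 with a −log10 q-value of at least 5. Width was not measured with joined peaks, so how much of the narrowing is a split of peaks was not tested. With a window of 5000 bp Neurod6 was marked in all 4 libraries too and was not among the 7, since E17 replicate 1 (2342 bp) exceeded E14 replicate 2 (1934 bp). The count marked at E14 only, 1 as reported (Neurod6), became 0 with a window of 5000 bp, with a −log10 q-value of at least 3 or 5, with lists of equal number and with at least 500 bp covered. In the first case Neurod6 gains E17 peaks, and in the others it is no longer marked in both E14 libraries. The median difference in percentile between stages was −4.285 and −12.2 points with a −log10 q-value of at least 3 and 5, and −0.718 with lists of equal number, where 2 genes and not 5 were lower in both E17 libraries. The cause was not tested. Leaving out 1 library at a time gave a decrease of the summed covered length from 6.86% to 13.4% (10.25% with all 4 libraries), a median width ratio from 70.3% to 85.2% and a median percentile difference from −4.01 to −1.37. The replicate numbers are not stated to mark a shared batch, and the differences between replicates correlated at 0.11 between the stages over 5675 genes. Pairing the libraries by number, as a replicate block, gave a decrease of 10.2%, 3 shorter genes, 7 narrower genes and 7 genes of lower rank in place of 5. The methods name a common read depth, but the lists do not show the depth of each library, so the shorter E17 lists limit what an absent peak can show.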
